A study of Mus musculus with 16 samples.

Results

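The transcripts described here are the well-counted long intergenic noncoding RNAs (lincRNAs) of mouse liver, followed through thioacetamide injury and the weeks after it. Members were chosen by type and mean count: a row of the deposited gene count table was taken where its type was lincRNA and its mean over the 16 libraries was 100 counts or more, with Malat1, Neat1, Kcnq1ot1 and H19 left out. This gave 75 rows under 74 symbols, of 5629 lincRNA rows and 55401 rows in all. C730027H18Rik has 2 overlapping rows that divide its reads, so the counts of each are uncertain. Without the named exceptions 77 rows passed, since only Malat1 and Neat1 were above the threshold with that type. Member means ran between 101 and 9897 counts, with a median of 167. The rows just inside the threshold were 5430416N02Rik with 101.1, Gm32063 with 101.6 and Gm20045 with 102.7 counts, and those just outside were Gm34667 with 97.4, Gm5165 with 96.6 and 5930430L01Rik with 95.6 counts. Because the mean includes every group, 9 of the 75 members would fall under 100 counts without the group in which they were highest (5430416N02Rik, Snhg6, Gm7160, Gm20045, Gm34777, Gm32063, Gm40264, Gm49980 and Terc), while 32 reached 100 counts in each of the 8 groups.

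A lincRNA is transcribed from DNA between protein-coding genes and carries no long reading frame. Many are capped, spliced and polyadenylated like messenger RNAs, at lower levels. Some work as RNA: they form the core of an enzyme, hold or expose a protein, or drive the decay of a microRNA. Others serve as precursors, since microRNAs or small nucleolar RNAs are cut from their exons or introns. Thioacetamide is a hepatotoxin whose prolonged intake produces liver fibrosis with bile duct proliferation, and much of the scar is resorbed once it is withdrawn.

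RNA was taken from whole liver of wild-type mice in 8 groups of 2 libraries each. TAA livers came from mice given thioacetamide at 300 mg/L in their drinking water for 8 weeks. Recovery livers came from mice taken 1, 2 or 4 weeks after that course, either with choline chloride at 3.5 g/L in the water (called choline 1, 2 or 4 weeks) or without it (called recovery 1, 2 or 4 weeks), and control livers came from untreated mice. The title of the study asks how choline bears on fibrosis resolution. Strain, age and sex were not among the labels. The label of each library does not say whether the 2 libraries of a group are separate animals, so p-values here measure the spread between these libraries, which may be technical.

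Libraries were made from total RNA with ribosomal RNA removed and the strand kept, so RNAs without a poly(A) tail were also read. Totals ran between 23.1 and 33.6 M counts. The members together took between 0.134% and 0.198% of the counts in 14 libraries, 0.0942% in TAA replicate 1 and 0.0785% in control replicate 1. The same 2 libraries stood apart in Malat1, an abundant nuclear RNA: it measured 1019 CPM (counts per 1e6 of a library scaled by the trimmed mean of M values, TMM) in TAA replicate 1 and 146 CPM in control replicate 1, against 5230 to 6799 CPM in the other 14. All 16 libraries held counts of Y-linked genes, and Xist held at most 9 counts in any of them. Albumin and the other 5 hepatocyte markers tested were present in all groups, with a summed level between 64360 and 91710 CPM, as the label of liver implies.

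The split between the libraries of 1 group reached the members directly. In TAA livers 34 of the 75 members (45.3%) differed by more than 2-fold between the libraries, 33 of them lower in replicate 1, against 17.5% of all 17292 genes tested. In control livers 34 members (45.3%) also differed by more than 2-fold, 31 of them lower in replicate 1, against 32.2% of all genes. In the 6 recovery and choline groups between 1 and 6 of the members did so (1.33% to 8%), against 5.84% to 10.7% of all genes. Gm31508, picked out here after its values were seen, measured 0.0771 CPM in TAA replicate 1 and 2.65 CPM in TAA replicate 2, and 0.823 CPM in control replicate 1 and 9.04 CPM in control replicate 2. Counts of called members are therefore also given without those 2 libraries, and the members whose call was then lost, or whose called value moved by over 1.5 times, are named.

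**Figure D1:**
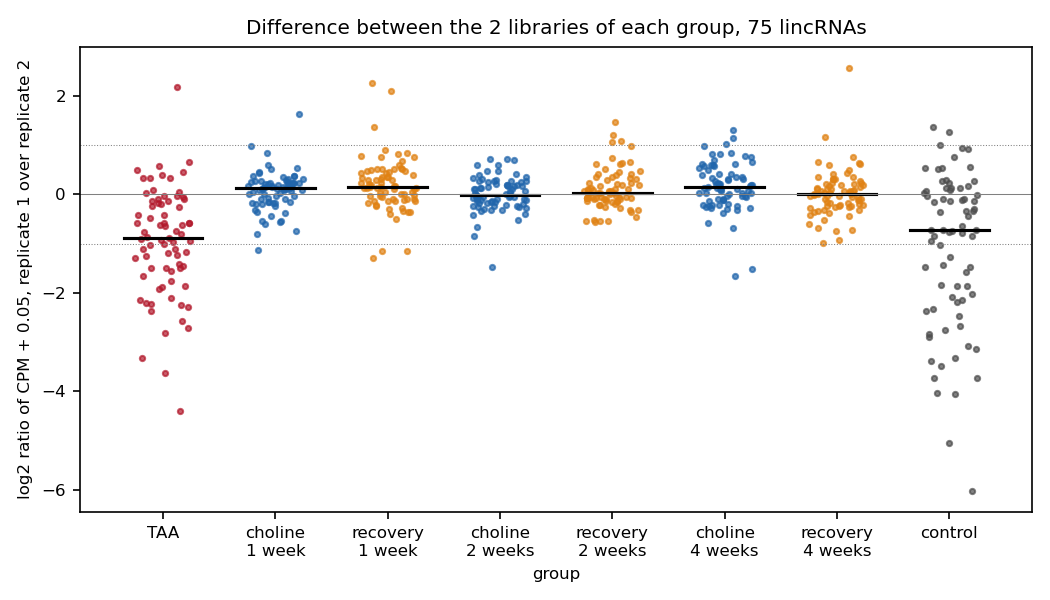
Each point is 1 of the 75 lincRNAs, placed by the log2 ratio of its level (CPM + 0.05) in replicate 1 over replicate 2 of its group, with a black bar at the group's median and dotted lines at 2-fold. The medians lie at -0.88 in TAA livers and -0.73 in control livers, and between -0.01 and 0.16 in the 6 recovery and choline groups.

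By TPM (the authors' transcript level per length, with an equal sum in every library), the 5 highest members over all libraries were Rmrp with a mean of 1338 TPM, Gm29966 with 69.2, Gm10076 with 60.2, Gm47283 with 35.2 and 1810008I18Rik with 30.9 TPM. Rmrp is the RNA core of the endoribonuclease RNase MRP, which cuts precursor ribosomal RNA. Gm29966 is the primary transcript that overlaps Mir122, the precursor of the liver's most abundant microRNA. Gm29966 also had the highest mean count of any member. It measured 34.01 and 225 CPM in TAA livers, 655 and 514 CPM at recovery 1 week, 648 and 234 CPM at 2 weeks, 454 and 294 CPM at 4 weeks, and 7.91 and 132 CPM in control livers. The TAA and control libraries overlapped, and no comparison called it at an adjusted p under 0.05. Gm47283 on chromosome Y and Erdr1 on chromosome X are near copies that share reads, and their CPM ran together over the 16 libraries (Pearson r = 0.98 on the log2 scale, a description with library depth in common), so the counts of each are uncertain.

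2900097C17Rik is listed by RefSeq as Norad, a cytoplasmic RNA that helps to keep the genome stable. Its transcript in the GENCODE M21 annotation (build GRCm38, chr2:156388065-156392979, minus strand) is a single exon of 4915 bases. Norad measured 136 and 145 CPM in TAA livers, 139 and 144 CPM at recovery 1 week, 184 and 184 CPM at 2 weeks, 207 and 176 CPM at 4 weeks, and 114 and 178 CPM in control livers. The TAA values lay inside the control range, with a log2 difference of -0.05 ± 0.19 (SE; adjusted p = 0.885). At 4 weeks of recovery it was 0.44 ± 0.19 above TAA, which was not called (adjusted p = 0.140). Without the 2 libraries low in Malat1 that difference was 0.40 ± 0.12 (adjusted p = 0.0344).

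Oip5os1, known as Cyrano, directs the decay of the microRNA miR-7 through 1 conserved and extensively paired site, and is shown by sequence for that reason. The mature miR-7a-5p (RefSeq, GRCm38.p6) is given with its seed, bases 2 to 8, in capitals. The site below was found in the 8300-base Oip5os1 transcript of GENCODE M21 at bases 2934 to 2959, with the complement of the seed in capitals. 13 bases in a row further upstream also pair with the microRNA.
miR-7a-5p: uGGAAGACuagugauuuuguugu
Oip5os1 site: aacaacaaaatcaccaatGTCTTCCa

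Oip5os1 was even between the libraries of each recovery time. It measured 53.2 and 59.8 CPM in TAA livers, 91.0 and 87.3 CPM at recovery 1 week, 78.7 and 87.6 CPM at 2 weeks, 89.1 and 92.7 CPM at 4 weeks, and 51.6 and 88.5 CPM in control livers. Each recovery library was above both TAA libraries, and the control libraries lay on either side of the TAA values. At 4 weeks it was higher than in TAA livers by 0.69 ± 0.21 (log2, SE; adjusted p = 0.0479), a call that was lost in 14 of 22 alternative settings with an adjusted p of up to 0.222. Against control the TAA difference of -0.31 ± 0.21 was not called (adjusted p = 0.320), but without the 2 libraries low in Malat1 it was -0.58 ± 0.14 (adjusted p = 0.0185).

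At the end of thioacetamide the members that changed most fell. Gm3734 changed by -6.22 ± 0.58 and Gm31583 by -4.03 ± 0.60 on the log2 scale (SE), and Snhg15, which hosts a small nucleolar RNA, was higher by 2.73 ± 0.55. In all, 21 of the 75 members were called in TAA against control livers at an adjusted p under 0.05 (edgeR's quasi-likelihood test with Benjamini-Hochberg adjustment over all 17292 genes), 4 higher and 17 lower. In the same comparison 21% of all genes tested were called, 10% higher and 11% lower, beside 28% of the members. The members' median log2 change was -0.11, against 0.03 over all genes. Without the 2 libraries low in Malat1, 31 members were called, 11 higher and 20 lower, against 15.9% of all genes (6.59% higher, 9.29% lower), and 17 of the 21 were among them. The 4 that were not were Gm16548, Gm36041 (-1.04, adjusted p = 0.119), Gm8883 (-1.23, adjusted p = 0.104) and 1 of the C730027H18Rik rows (ENSMUSG00000112189; -0.75, adjusted p = 0.111), and the difference of Gm20300 was then -0.56, against -1.10 with all libraries, and was still called. In that fit TAA and control livers have 1 library each, which is assumed to vary like the other groups. Fitted on the 4 TAA and control libraries alone, 2 members remained called, Gm3734 and Gm31583, where 0.231% of all genes were called, and without control replicate 2 the count was 42, where 47.3% of all genes were.

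Gm3734, on chromosome 18, measured 0.771 and 0.600 CPM in TAA livers, against 74.8 and 28.9 CPM in control livers. The groups lay far apart, and the adjusted p was 0.000136. Gm31583 (chr16:24085083-24090089, minus strand) measured 1.16 and 2.05 CPM in TAA livers and 23.3 and 28.7 CPM in control livers (adjusted p = 0.00107). Its nearest coding gene is Bcl6, which encodes a transcriptional repressor. Without the 2 libraries low in Malat1 the differences were -5.59 ± 0.74 for Gm3734 and -3.81 ± 1.03 for Gm31583, both still called. Fewer cells of a type and less RNA per cell cannot be told apart in whole liver, here and in all results below.

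9030616G12Rik (chr10:128971197-128978115, plus strand) measured 1.77 and 2.75 CPM in TAA livers, against 9.24 and 7.63 CPM in control livers, a log2 difference of -1.90 ± 0.26 (adjusted p = 0.000724). 4732465J04Rik (chr10:95746077-95796831, plus strand) measured 5.40 and 9.16 CPM in TAA livers and 20.6 and 18.4 CPM in control livers, or -1.42 ± 0.21 (adjusted p = 0.00100). 1810008I18Rik (chr7:65803111-65806286, plus strand), the highest of these by level, measured 17.9 and 20.98 CPM in TAA livers and 63.7 and 58.2 CPM in control livers, or -1.65 ± 0.24 (adjusted p = 0.00107). In each of the 3 both TAA libraries were below both control libraries, and the control libraries lay close together. Gm17753, Gm48633, 2310001H17Rik, Gm19696 and Gm20300 were also lower, with log2 differences between -2.04 and -1.10. These 8, together with Gm3734, Gm31583 and Snhg15, kept their call in each of the 21 alternatives other than the fit of the 4 libraries alone.

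Other calls were lost when 1 library was left out. C730036E19Rik is listed by RefSeq as lncLSTR, a liver-enriched RNA known in mice to act on bile acid composition and plasma triglyceride clearance. It measured 0.386 and 1.42 CPM in TAA livers, against 1.05 and 8.21 CPM in control livers, so that the groups overlapped. The difference of -2.39 ± 0.75 (adjusted p = 0.0412) was lost in 15 of 22 alternatives, and was -2.54 ± 0.37 without both libraries low in Malat1 (adjusted p = 0.00142). Gm16548, which overlaps the coagulation factor gene F5 on the other strand, changed by -1.50 ± 0.35 (adjusted p = 0.0120), and lost its call without TAA replicate 1 (-1.28, adjusted p = 0.0908) and without both libraries low in Malat1 (-1.16, adjusted p = 0.132). AW112010, an interferon-inducible transcript of immune cells in mice, measured 19.05 and 12.7 CPM in TAA livers and 54.5 and 27.1 CPM in control livers, or -1.36 ± 0.30 (adjusted p = 0.00847). It was not called without TAA replicate 2 (-1.10, adjusted p = 0.0632), and was called without both libraries low in Malat1 (-1.10 ± 0.22, adjusted p = 0.00711).

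Snhg15 (chr11:6525591-6528779, minus strand) carries Snora9 within it. It measured 8.996 and 18.2 CPM in TAA livers, against 0.686 and 3.32 CPM in control livers, and its lowest TAA library was above its highest control library. Snhg12 (chr4:132308678-132311024, plus strand), host of Snora44, Snora61, Snora16a and Snord99, measured 7.22 and 11.2 CPM in TAA livers and 4.34 and 4.62 CPM in control livers, or 1.04 ± 0.23 (adjusted p = 0.00993). Snhg12 lost its call without TAA replicate 2 (0.69, adjusted p = 0.0769). Gm34934 was higher by 0.90 ± 0.22 (adjusted p = 0.0136), and was not called without TAA replicate 1 (0.88, adjusted p = 0.0576).

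**Figure D2:**
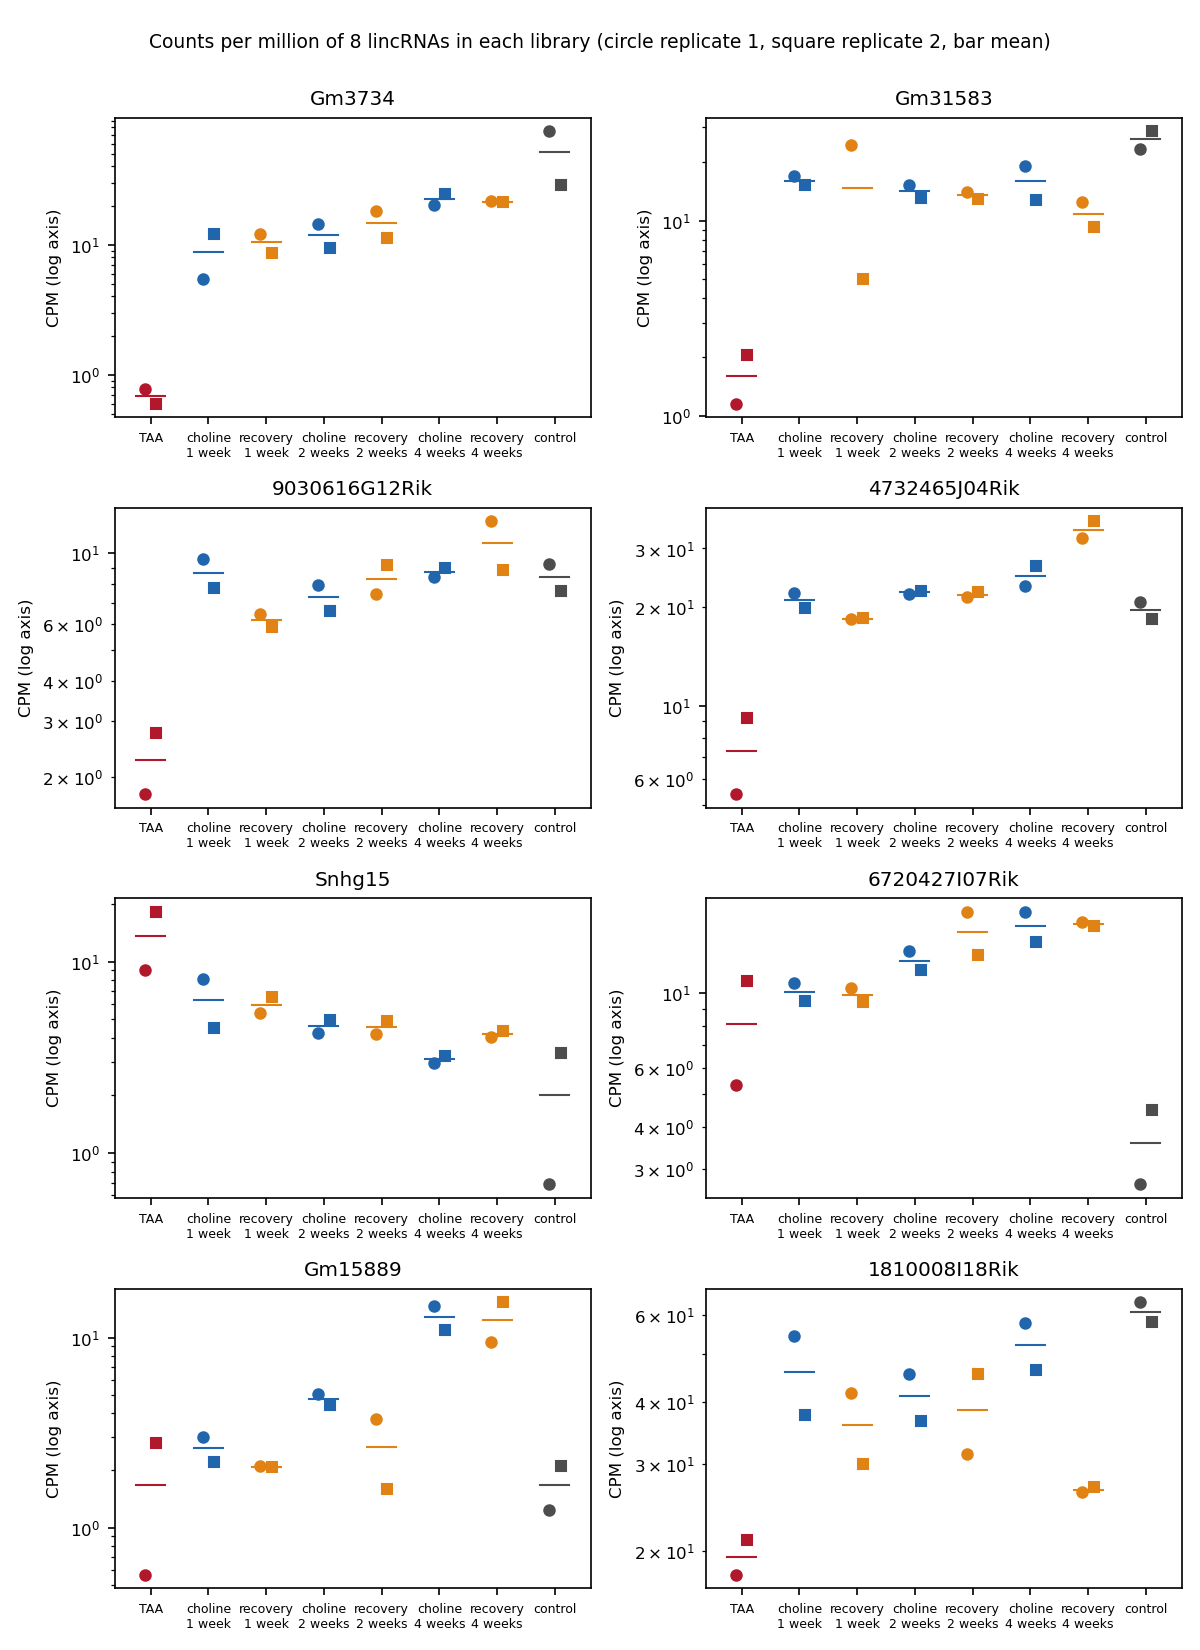
Each panel gives the CPM of 1 lincRNA on a log axis in the 16 libraries, with circles for replicate 1, squares for replicate 2 and a bar at the mean of the 2. Gm3734, Gm31583, 9030616G12Rik, 4732465J04Rik and 1810008I18Rik are lowest in TAA livers, Snhg15 is highest there, and Gm15889 is highest at 4 weeks of recovery with or without choline.

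After withdrawal most of the members that had been lower in TAA livers were higher again by the first or second week. Against TAA livers, 9 members were called at recovery 1 week, all higher (3.75% of all genes called, 1.97% higher and 1.78% lower). At 2 weeks 20 members were called, all higher (11% of all genes, 5.13% higher and 5.88% lower), and at 4 weeks 21 were called, 19 higher and 2 lower (14.9% of all genes, 6.47% higher and 8.39% lower). The members' medians were 0.65, 0.82 and 0.77 at 1, 2 and 4 weeks, against 0.01, -0.03 and 0.01 over all genes. Of the 17 members lower in TAA than control livers, 15 were higher than TAA at 1 or more of these times and 8 at all 3. The 3 recovery comparisons and the first one share the TAA libraries, so these counts are not independent of each other. The 17 were picked by low values in those libraries, so some return is built into the choice. The return of all genes lower in TAA livers was not counted, so it is not shown to be particular to the members.

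Without the 2 libraries low in Malat1 21 were called at 1 week, 15 higher and 6 lower, where 11.8% of all genes were called (5.87% higher, 5.94% lower). At 2 weeks 29 were called, 24 higher and 5 lower, against 20.9% of all genes (10.7% higher, 10.2% lower). At 4 weeks 37 were called, 29 higher and 8 lower, against 26.5% of all genes (12.9% higher, 13.6% lower). The medians of the members were then 0.33, 0.47 and 0.61. Of the calls made with all libraries, 8 of 9, 18 of 20 and 18 of 21 were also made without them. Those lost were Gm31583 at each of the 3 times, 1810008I18Rik at 2 weeks (0.88, adjusted p = 0.0869), and 6720427I07Rik and the same C730027H18Rik row at 4 weeks (0.74, adjusted p = 0.0580 for the row). At 1 week none was called without recovery 1 week replicate 1 (0.00578% of all genes), 1 was called without TAA replicate 1 (0.532%), and 24 and 25 were called without control replicates 1 and 2 (16.7% and 16.6%). At 2 weeks the count was 11 without TAA replicate 1 (4.19% of all genes) or either recovery 2 weeks library (2.65% and 2.6%) and 35 without either control library (26% and 26.2%). At 4 weeks it was 12 without TAA replicate 1 (6.64%), 7 and 11 without recovery 4 weeks replicates 1 and 2 (5.45% and 5.27%), and 41 without either control library (32.2% each). In the settings listed here the counts over all genes moved in the same direction as those of the members. Without TAA replicate 2 they moved the other way at each of the 3 times: more members and fewer genes were called.

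**Figure D3:**
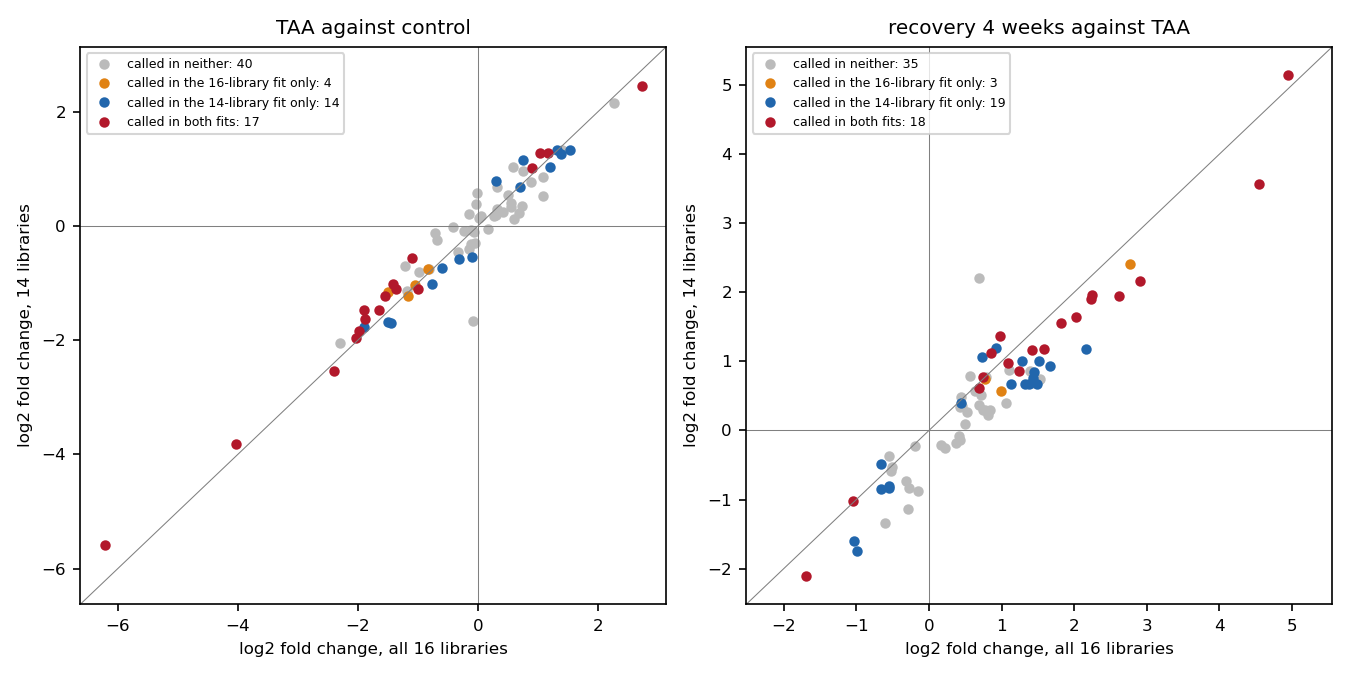
Each point is 1 of the 75 lincRNAs, with its log2 fold change in the fit of all 16 libraries on the horizontal axis and in the fit without TAA replicate 1 and control replicate 1 on the vertical axis, for TAA against control (left) and recovery 4 weeks against TAA (right). On the left 17 are called in both fits and 14 in the 14-library fit only; on the right 18 and 19 are, and most points there lie below the diagonal.

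Gm3734 measured 0.771 and 0.600 CPM in TAA livers, 12.2 and 8.65 CPM at recovery 1 week, 18.03 and 11.4 CPM at 2 weeks and 21.6 and 21.2 CPM at 4 weeks. It was higher than in TAA livers by 3.91 ± 0.54, 4.40 ± 0.55 and 4.95 ± 0.56 on the log2 scale. All recovery libraries lay above TAA and below the lower control library, and against control the difference at 4 weeks was not called. The call at 1 week was lost when TAA replicate 1 (4.11, adjusted p = 0.0542) or recovery 1 week replicate 1 (3.64, adjusted p = 0.0633) was left out.

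4732465J04Rik measured 5.40 and 9.16 CPM in TAA livers, 18.3 and 18.4 CPM at recovery 1 week, 21.3 and 22.1 CPM at 2 weeks and 32.2 and 36.2 CPM at 4 weeks. Replicates lay close together at each recovery time, and the level at 4 weeks passed that of control livers (20.6 and 18.4 CPM), by 0.81 ± 0.20 (adjusted p = 0.0228). That last call was lost without recovery 4 weeks replicate 1 (0.90, adjusted p = 0.0710) or 2 (0.73, adjusted p = 0.141). Against TAA livers it was higher by 1.34 ± 0.21, 1.58 ± 0.21 and 2.24 ± 0.21, with an adjusted p of 0.000191 at 4 weeks. 9030616G12Rik measured 1.77 and 2.75 CPM in TAA livers, 6.47 and 5.90 CPM at recovery 1 week, 7.44 and 9.21 CPM at 2 weeks and 12.5 and 8.89 CPM at 4 weeks, a rise over TAA of 2.25 ± 0.26 at 4 weeks (adjusted p = 0.000445). Together with Gm3734, 2310001H17Rik and Gm20300, these were the members whose call at 4 weeks was kept in each of the 21 alternatives.

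lncLSTR (C730036E19Rik) measured 0.386 and 1.42 CPM in TAA livers, 6.43 and 4.63 CPM at recovery 1 week, 4.59 and 6.63 CPM at 2 weeks and 5.78 and 5.14 CPM at 4 weeks. All 6 recovery libraries were more than 3-fold above the higher TAA library. The rise of 2.61 ± 0.75 at 4 weeks was called (adjusted p = 0.0373) and was lost in 14 of 22 alternatives. It was 1.94 ± 0.34 without the 2 libraries low in Malat1 (adjusted p = 0.00196). Gm31583 measured 24.3 and 5.02 CPM at recovery 1 week, 13.99 and 12.9 CPM at 2 weeks and 12.5 and 9.26 CPM at 4 weeks, against 1.16 and 2.05 CPM in TAA livers. Its rise of 2.77 ± 0.58 at 4 weeks was not called when TAA replicate 1 (2.40, adjusted p = 0.0849), recovery 4 weeks replicate 1 (2.54, adjusted p = 0.0551) or both libraries low in Malat1 (2.40 ± 0.95, adjusted p = 0.111) were left out. Without those 2 libraries its differences at 1 and 2 weeks, 2.83 and 2.71, were not called either (adjusted p = 0.111 and 0.0919).

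Gm50136 was called higher than in TAA livers at 2 and 4 weeks, by 4.55 on the log2 scale at 4 weeks. That call was lost in 2 of 22 alternatives, and the call at 2 weeks in 7. The other C730027H18Rik row (ENSMUSG00000112366) was called higher at the same times, by 2.02 at 4 weeks, each call lost in 2 of 22 alternatives. Gm5524, AI463229 and Gm40264 were also among the leading members of these comparisons. Gm5524 measured 8.61 and 5.40 CPM in TAA livers, 15.7 and 12.7 CPM at recovery 1 week, 18.2 and 15.4 CPM at 2 weeks and 12.7 and 15.04 CPM at 4 weeks, and was higher than in TAA livers by 1.02 ± 0.24 at 1 week (adjusted p = 0.0408), a call lost in 15 of 22 alternatives. All 6 recovery libraries were above both TAA libraries. AI463229 measured 1.59 and 3.07 CPM in TAA livers, 8.42 and 6.63 CPM at 2 weeks and 7.45 and 6.45 CPM at 4 weeks, with differences of 1.70 ± 0.36 and 1.58 ± 0.36 (adjusted p = 0.0125 and 0.0130). Gm40264 measured 0.745 and 1.90 CPM in TAA livers and 5.61 and 5.87 CPM at 2 weeks, or 2.13 ± 0.59 (adjusted p = 0.0413), a call lost in 14 of 22 alternatives.

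The 2 members that were lower at 4 weeks of recovery than in TAA livers were both among the 4 higher in TAA than control livers. Snhg15 measured 5.38 and 6.51 CPM at recovery 1 week, 4.21 and 4.88 CPM at 2 weeks and 4.02 and 4.35 CPM at 4 weeks, against 8.996 and 18.2 CPM in TAA livers, a difference of -1.70 ± 0.52 at 4 weeks (adjusted p = 0.0497). Every recovery library was below both TAA libraries. The call was lost in 15 of 22 alternatives, with an adjusted p of up to 0.207, and without the 2 libraries low in Malat1 the difference was -2.11 ± 0.28 (adjusted p = 0.000397). Gm34934 measured 2.99 and 3.83 CPM at 4 weeks, against 7.15 and 6.98 CPM in TAA livers, or -1.05 ± 0.22 (adjusted p = 0.00859), and was not called without recovery 4 weeks replicate 1 (-0.88, adjusted p = 0.0844).

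At 4 weeks of recovery 23 of the 75 members differed from untreated liver, and for the other 52 no difference was called. Of the 23, 16 were higher and 7 lower than in control livers, in a comparison that called 19.5% of all genes (7.33% higher, 12.2% lower). The log2 differences of all 75 members, called or not, ran between -1.27 and 2.87. Their median was 0.53, against 0.04 over all genes, and 0.26 without the 2 libraries low in Malat1, where 22 were called (16 higher, 6 lower) against 12.4% of all genes (5.07% higher, 7.32% lower) and 17 of the 23 were among them. The 6 that were not were Terc, AU020206, Gm27216, Gm20186 (1.03, adjusted p = 0.0621), Gm46430 (0.70, adjusted p = 0.115) and AC160336.1 (0.69, against 1.23 with all libraries, adjusted p = 0.0534). The count was 1 without either recovery 4 weeks library (0.734% and 0.492% of all genes), 5 without control replicate 1 (5.85%) and 49 without control replicate 2 (52.4%), and neither a member nor any other gene was called when these 4 libraries were fitted alone. A single member, 6720427I07Rik, kept its call in all the other alternatives.

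6720427I07Rik (chr13:48532905-48546500, minus strand) is the primary transcript over a cluster of 3 let-7 microRNAs, a family that represses growth and proliferation genes in many tissues. It measured 16.3 and 15.9 CPM at recovery 4 weeks, against 2.697 and 4.48 CPM in control livers, a difference of 2.15 ± 0.32 (adjusted p = 0.00594) that was 1.84 ± 0.22 without both libraries low in Malat1 (adjusted p = 0.00127). In TAA livers it measured 5.35 and 10.9 CPM, which was 1.16 ± 0.32 above control (adjusted p = 0.0240) and was not called without TAA replicate 2 (0.56, adjusted p = 0.211) or control replicate 1 (0.84, adjusted p = 0.118). It measured 10.3 and 9.45 CPM at recovery 1 week and 17.4 and 13.0 CPM at 2 weeks, so every recovery library was above both control libraries. Over TAA livers the rise at 4 weeks was 0.99 ± 0.31 (adjusted p = 0.0496), a call lost in 16 of 22 alternatives, and it was 0.56 ± 0.19 without both libraries low in Malat1 (adjusted p = 0.0507). The 3 mature 5p microRNAs of the cluster share 1 seed, in capitals (RefSeq, GRCm38.p6, minus strand). The small RNA rows of the cluster held 0 counts in these libraries, so only the precursor was measured.
let-7a-5p, chr13:48538239-48538260: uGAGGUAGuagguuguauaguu
let-7f-5p, chr13:48537889-48537910: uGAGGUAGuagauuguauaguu
let-7d-5p, chr13:48536078-48536099: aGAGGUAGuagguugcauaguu

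Of the other members higher at 4 weeks than in control, Gm20342, Gm20045, Gm21781 and Gm43597 were higher by 2.86 ± 0.74, 2.64 ± 0.76, 2.43 ± 0.66 and 2.16 ± 0.50. Control replicate 1 was far the lowest library in each: Gm20342 measured 15.2 and 14.1 CPM at 4 weeks, against 0.229 and 3.66 CPM in control livers. Without both libraries low in Malat1 its difference was 1.99 ± 0.17 (adjusted p = 0.000243), smaller and still called. Gm20045 reached the 100-count threshold only through its recovery 4 weeks libraries (a mean of 97.7 counts without them). Its difference from control is therefore not independent of its choice. Gm42031 (18.8 and 14.7 CPM at 4 weeks, against 1.37 and 7.08 CPM in control livers), AU020206 (6.93 and 6.94 CPM, against 1.01 and 3.80 CPM) and 4632404H12Rik (7.69 and 6.15 CPM, against 1.87 and 3.87 CPM) were higher by 1.97 ± 0.53, 1.51 ± 0.48 and 1.26 ± 0.38. Their libraries did not overlap with those of control, and without both libraries low in Malat1 the differences were 1.24, 0.86 and 0.83, that of AU020206 no longer called (adjusted p = 0.145). The 7 lower members included Rmrp and Terc, the RNA template of telomerase. Rmrp measured 159 and 200 CPM at 4 weeks, against 387 and 318 CPM in control livers, or -0.97 ± 0.20 (adjusted p = 0.0136), and was not called without recovery 4 weeks replicate 1 (-0.82, adjusted p = 0.0776) or 2 (-1.15, adjusted p = 0.0692). A second Rmrp row of type ribozyme takes most of its reads, the lincRNA row holding between 16% and 21.9% of both, and over both rows Rmrp measured 971 and 1023 CPM at 4 weeks, against 1768 and 1589 CPM in control livers. Terc measured 2.15 and 3.11 CPM at 4 weeks and 8.23 and 4.31 CPM in control livers, or -1.25 ± 0.35 (adjusted p = 0.0336). It was not called without control replicate 1 (-0.74, adjusted p = 0.223), without both libraries low in Malat1 (-0.71 ± 0.34, adjusted p = 0.180) or in 5 further alternatives. Terc reached the 100-count threshold only through its control libraries (a mean of 98.2 counts without them), so its difference from control is not independent of its choice. Gm27216 measured 4.38 and 4.09 CPM at 4 weeks, against 12.3 and 7.22 CPM in control livers, or -1.20 ± 0.33 (adjusted p = 0.0319), and was -0.77 without both libraries low in Malat1 (adjusted p = 0.149).

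**Figure D4:**
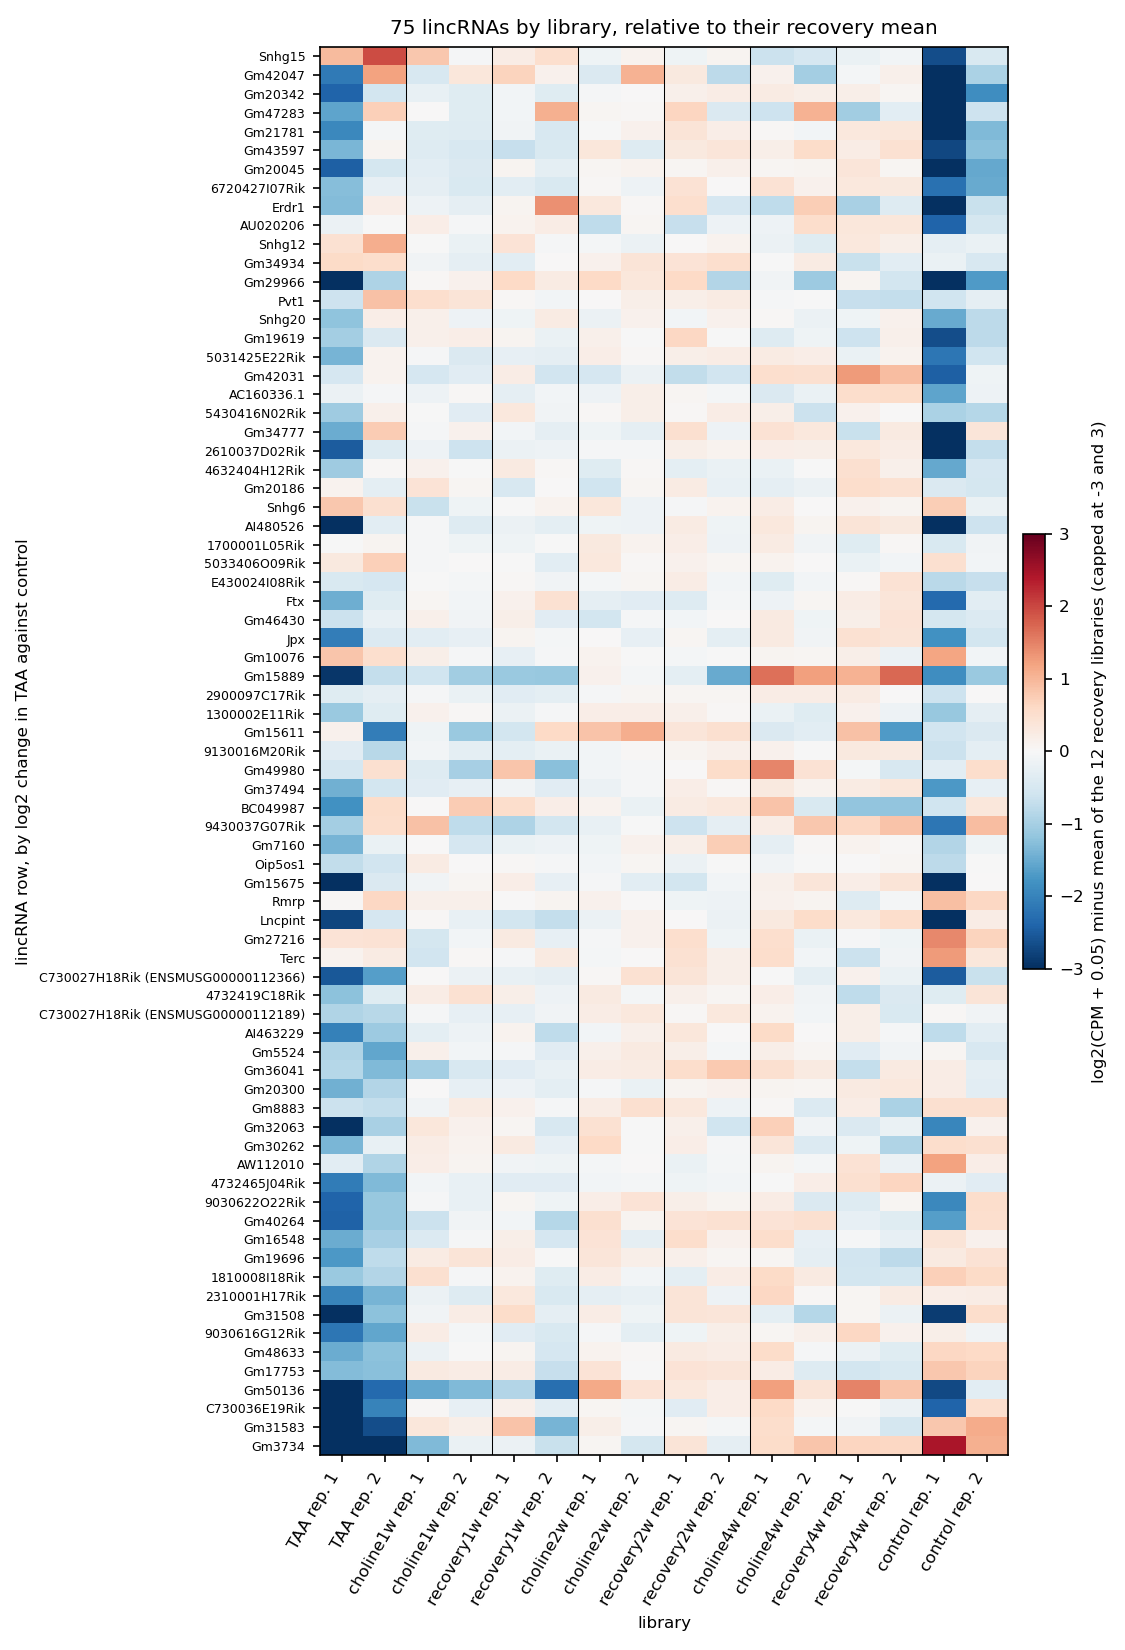
Rows are the 75 lincRNAs, ordered from the highest to the lowest log2 change in TAA against control livers, and columns are the 16 libraries; colour is log2(CPM + 0.05) minus the row's mean over the 12 recovery libraries with or without choline, capped at -3 and 3. TAA replicate 1 and control replicate 1 are the columns with the most dark blue cells, while the lowest rows are blue in both TAA libraries and mostly pale or red in control replicate 2.

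Time in recovery was compared over both arms, week 4 against week 1, with no control or TAA library. 1 member was called, Gm15889, in a comparison that called 3.03% of all genes (1.42% higher, 1.61% lower). Gm15889 (chr8:94377872-94380314, plus strand) is a transcript of 2 exons that ends 6124 bases before the start of Herpud1 on the same strand. It measured 14.6 and 10.98 CPM at choline 4 weeks and 9.52 and 15.3 CPM at recovery 4 weeks, against 3.02 and 2.22 CPM at choline 1 week and 2.11 and 2.08 CPM at recovery 1 week. All 4 libraries of week 4 were more than 3-fold above all 4 of week 1, with a log2 difference of 2.43 ± 0.42 (adjusted p = 0.00941). Week 2 lay between, at 5.06 and 4.43 CPM with choline and 3.74 and 1.59 CPM without. In TAA livers it measured 0.565 and 2.78 CPM and in control livers 1.23 and 2.12 CPM, so that it was also higher at recovery 4 weeks than in TAA livers (2.91 ± 0.60, adjusted p = 0.00862) and than in control livers (2.87 ± 0.61, adjusted p = 0.0156).

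The call for time was lost without choline 1 week replicate 2 (2.33, adjusted p = 0.0688) and without recovery 1 week replicates 1 (2.44, adjusted p = 0.0534) or 2 (2.42, adjusted p = 0.0603). Against TAA it was lost without recovery 4 weeks replicate 2 (2.52, adjusted p = 0.0638), and against control without control replicate 1 (2.52, adjusted p = 0.0877) and without either recovery 4 weeks library (3.18 and 2.49, adjusted p = 0.0579 and 0.109). Without the 2 libraries low in Malat1, which the comparison of weeks does not contain but whose spread enters the shared fit, 20 members were called between week 4 and week 1, 17 higher and 3 lower, against 15.3% of all genes (7.99% higher, 7.34% lower). The count was 18 in the fit of the 4 groups alone (10.5% of all genes), 4 without either TAA library (3.12% and 3.11%) and 8 without either control library (9.57% and 9.74%). Gm50136 (2.48 ± 0.61, adjusted p = 0.0510) and 4732465J04Rik (0.57 ± 0.14, adjusted p = 0.0535) were next and were not called with all libraries. Gm50136 measured 14.6 and 8.15 CPM at choline 4 weeks and 17.4 and 10.99 CPM at recovery 4 weeks, against 2.11 and 2.43 CPM at choline 1 week and 3.34 and 1.26 CPM at recovery 1 week.

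Choline made no called difference in any member. At 1, 2 and 4 weeks, over their mean and in the test of whether the weeks differ, 0 of the 75 were called, where 0%, 0%, 0.052%, 0.0173% and 0% of all genes were. At an unadjusted p under 0.05 the counts of members were 0, 0, 9 (12%), 2 and 2 (2.67% each), beside 0.891%, 1.16%, 5.88%, 3.05% and 1.91% of all genes. DESeq2 called 1 member, 1810008I18Rik at 4 weeks, and none in the other 4 tests. That transcript measured 57.9 and 46.5 CPM at choline 4 weeks and 26.3 and 26.9 CPM at recovery 4 weeks, with no overlap, a difference of 0.97 ± 0.24 (edgeR, unadjusted p = 0.0017, adjusted p = 0.394; DESeq2, adjusted p = 0.0297). The other values with the smallest p at 4 weeks were 0.62 ± 0.22 for Gm34934 (adjusted p = 0.686) and -0.72 ± 0.28 for Gm20186 (adjusted p = 0.766).

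1810008I18Rik measured 54.3 and 37.6 CPM at choline 1 week and 41.7 and 30.04 CPM at recovery 1 week, or 0.36 ± 0.24. At 2 weeks it measured 45.6 and 36.6 CPM with choline and 31.4 and 45.5 CPM without, where the libraries overlapped. Over the 3 weeks its mean choline difference was 0.47 ± 0.14 (unadjusted p = 0.00498, adjusted p = 1.00). The test of a difference between weeks gave it an unadjusted p of 0.0617. The level at recovery 4 weeks without choline was below control (63.7 and 58.2 CPM), with a difference of -1.20 ± 0.24 (adjusted p = 0.0137), and was not called without either of its own libraries (-1.18 and -1.21, adjusted p = 0.0707 and 0.103). At 1 week the smallest p belonged to 9030616G12Rik (0.49 ± 0.24, unadjusted p = 0.0676) and at 2 weeks to Gm15889 (0.83 ± 0.58, unadjusted p = 0.178), neither of them called.

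The members that host small RNAs were read beside the other hosts in the table. 8 of the 75 members overlapped 16 small RNA rows on their own strand. Of 29 rows on a list of small RNA hosts, of any type, 26 were tested and 4 were members (Snhg6, Snhg12, Snhg15 and Snhg20). Whether Mirt1 and Mirt2, which are on that list, host a small RNA was not checked, and Snhg4 is on it more than once. Mirt2 was called higher in TAA against control livers (2.04 ± 0.45) and lower at 4 weeks of recovery against TAA (-1.76 ± 0.44). The counts and medians below are therefore those of the list, not of hosts alone. In TAA against control livers 8 of the 26 were higher and 1 was lower, with a list median of 0.76 against 0.03 over all genes, of which 10% were called higher and 11% lower. Fitted on the 14 libraries other than those 2 low in Malat1, 9 were higher and 2 lower, with a median of 0.79. Snhg16 (1.88 ± 0.41), Snhg1 (1.78 ± 0.24), Zfas1 (1.48 ± 0.26) and Gas5 (0.81 ± 0.23), all hosts of small nucleolar RNAs that guide ribosomal RNA modification, were higher, and Mir22hg, the precursor of miR-22, was lower (-0.90 ± 0.16). At 4 weeks of recovery against TAA livers 2 of the 26 were higher and 4 lower, Snhg15, Snhg1, Zfas1 and Mirt2 being the lower ones (6.47% of all genes were called higher and 8.39% lower), and without those 2 libraries 4 were higher and 7 lower. Snhg6 measured 5.91 and 4.71 CPM in TAA livers and 5.62 and 2.91 CPM in control livers, and Snhg20 measured 1.85 and 4.99 CPM in TAA livers and 1.51 and 2.53 CPM in control livers. Both overlapped between groups and were not called.

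Jpx and Ftx lie in the X-inactivation centre, where they act on Xist in female cells. Jpx measured 1.65 and 5.28 CPM in TAA livers, 9.64 and 9.19 CPM at recovery 4 weeks and 1.97 and 4.79 CPM in control livers. It was higher at 4 weeks than in control by 1.46 ± 0.47 (adjusted p = 0.0476), and the call was lost in 14 of 22 alternatives with an adjusted p of up to 0.400. Without both libraries low in Malat1 it was 0.97 ± 0.22 (adjusted p = 0.0206). Ftx, at 2.21 and 4.83 CPM in TAA livers, 7.29 and 8.06 CPM at recovery 4 weeks and 1.19 and 4.96 CPM in control livers, was not called. Of the list of nuclear RNAs 8 of 11 rows were tested, 2 of them members, and at 4 weeks against control 2 were higher (Jpx, and Tug1 by 0.72), where 7.33% of all genes were called higher, with none called in TAA against control. At 4 weeks against TAA none was called with all libraries. The list median there was 1.10, and 0.51 without both libraries low in Malat1, against 0.01 and 0.02 over all genes. In the fit of the other 14 libraries 3 were higher at 4 weeks against control (Tug1, Jpx and Kcnq1ot1) and 1 was lower in TAA against control (Firre).

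Lncpint is a target of p53 in mice, and Pvt1 lies beside Myc, whose protein it is known to stabilise in tumour cells. Lncpint measured 5.22 and 24.99 CPM in TAA livers, 44.0 and 51.2 CPM at recovery 4 weeks and 4.07 and 41.3 CPM in control livers, and no difference was called with all libraries. Pvt1 measured 2.49 and 7.11 CPM in TAA livers, 2.35 and 2.33 CPM at recovery 4 weeks and 2.51 and 3.18 CPM in control livers. Without the 2 libraries low in Malat1, the TAA difference from control was -0.74 ± 0.20 for Lncpint (adjusted p = 0.0318) and 1.15 ± 0.24 for Pvt1 (adjusted p = 0.00809). Of the p53 list 3 rows were tested and none was called with all libraries. In the fit of the other 14 libraries their differences at 4 weeks against TAA were 0.93 for Lncpint, -1.60 for Pvt1 and -2.75 for Trp53cor1. Of the 8 imprinted transcripts tested, none a member, 2 were higher in TAA than control livers (H19 and Airn) and none was lower; the fit of the other 14 libraries called none of them. At 4 weeks against TAA none of the imprinted transcripts was called with all libraries. Their median there was -0.69, and -0.53 in the fit of the other 14 libraries. Among all genes 10% were called higher and 11% lower in TAA against control, and 7.33% and 12.2% at 4 weeks against control. Of the 13 tested rows on the list of RNAs with known functions none was called in TAA against control, and 1 was higher and 3 lower at 4 weeks against control. Those 3 were both Rmrp rows and Terc, and the higher one was Gm15441. In the fit of the other 14 libraries the lower ones at 4 weeks were the 2 Rmrp rows, none was higher, and Oip5os1 was lower in TAA against control.

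The members lie on 21 chromosomes. Of the 75, 74 have an identifier in GENCODE M21, and 71 of these are of type lincRNA there; Snhg15 is a processed transcript, and Erdr1 and Gm47283 are protein coding. Their median distance to the nearest coding gene was 11134 bases, and for 31 of them it was under 5 kb. By position 8 were divergent from that gene (starts within 2000 bases on opposite strands), 37 were on its strand, 25 on the other strand, and 5 overlapped it. Among the 58 pairs without overlap in which both could be tested, member and neighbour were both called in 7 in TAA against control, 6 in the same direction, and in 5 at recovery 4 weeks against TAA, 4 in the same direction. Of those 58 pairs the member was called in 17 and the neighbour in 16 (27.6%) in TAA against control, and the neighbour was called in 41.2% of the pairs with a called member. At 4 weeks against TAA the numbers were 17 and 13 (22.4%), and 29.4%. In the fit of the other 14 libraries these shares were 20.7% and 22.2% in TAA against control, and 50% and 45.2% at 4 weeks against TAA, and no test of the difference was made. The pairs called together in the same direction in TAA against control were 9030616G12Rik with Mettl7b, 1810008I18Rik with Pcsk6, Gm20300 with Hint3, Gm36041 with Avpr1a, Gm34934 with Samd4 and 2310001H17Rik with Clec2d. Across the pairs the log2 changes had a Pearson r of 0.28 in TAA against control and 0.38 at 4 weeks against TAA, as a description across genes that share libraries and are not independent replicates.

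Herpud1, a membrane protein of endoplasmic-reticulum-associated degradation, is the neighbour of Gm15889. It was higher at week 4 than week 1 over both arms by 1.48 ± 0.30 (adjusted p = 0.0239), as Gm15889 was. Herpud1 measured 139.7 and 148.9 CPM in TAA livers and 798.9 and 248.4 CPM in control livers, a difference of -1.86 ± 0.44 (adjusted p = 0.0120), beside -0.04 ± 0.60 for Gm15889. In the fit of the other 14 libraries the difference of Herpud1 was -0.75 ± 0.37 and was not called (adjusted p = 0.209). Samd4, which encodes an RNA-binding protein, is divergent from Gm34934. It measured 49.0 and 41.3 CPM in TAA livers and 5.53 and 7.02 CPM in control livers, higher by 2.84 ± 0.26 (adjusted p = 0.000124), where Gm34934 was higher by 0.90. Clec2d, a ligand of natural killer cell receptors, lies 21878 bases from 2310001H17Rik and changed by -1.53 ± 0.31 in TAA against control livers, beside -1.88 ± 0.30 for the lincRNA. For Gm3734 the neighbour Eif1a, a translation initiation factor, changed by -0.17 ± 0.31, against -6.22 for the lincRNA. From the other 14 libraries, Samd4 changed by 2.55 ± 0.33, Clec2d by -1.56 ± 0.21 and Eif1a by 0.30 ± 0.26. Reads from a lincRNA and a neighbour on the same strand cannot always be told apart, and whether neighbours share reads was not tested.

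**Figure D5:**
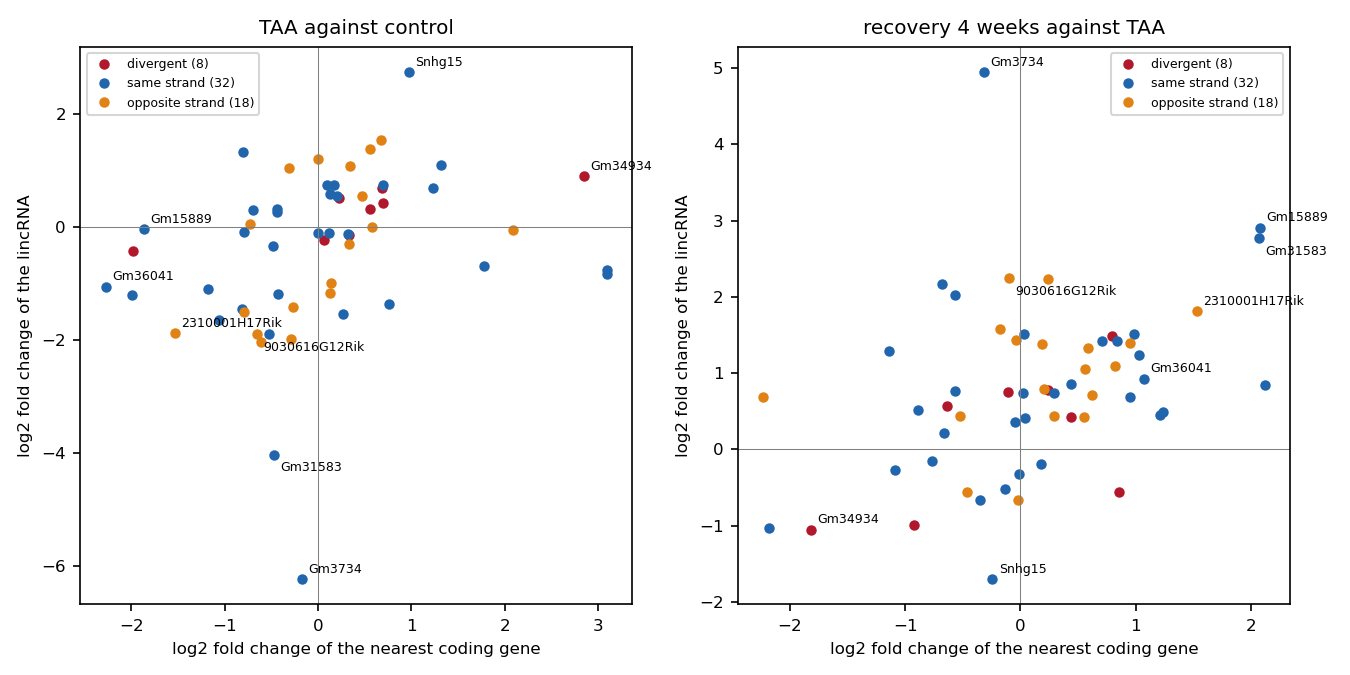
Each point is a lincRNA and its nearest coding gene, without overlap, with the neighbour's log2 fold change on the horizontal axis and the lincRNA's on the vertical axis; colour gives their relative strand, with the number of pairs. Gm34934, 2310001H17Rik and Gm36041 lie on the same side of 0 as their neighbours in both comparisons, while Gm3734 and Snhg15 move without a called change in theirs.

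Promoters are shown for 5 members picked from those described above, not by rank of change. Gm3734, with the largest change in TAA livers, is not among them. Of the 74 symbols, 44 have an entry among RefSeq's 32851 promoters (GRCm38.p6, 250 bases before to 50 after the start). Letters were searched on both strands: the TATA box TATAAA occurred in 13.6% of all promoters, the CCAAT box CCAAT in 37.4%, the GC box GGGCGG in 35.7%, and the antioxidant response core TGACNNNGC in 12.4%. The AP-1 site TGACTCA occurred in 5.20%, the STAT site TTCNNNGAA in 8.30% and the cAMP response element TGACGTCA in 1.79%, the last added after the Snhg15 sequence had been seen. Matches are in capitals; none overlaps another, and a match describes letters, not a site in use. The promoters of 9030616G12Rik, 4732465J04Rik and Gm31583 belong to members lower in TAA and higher after withdrawal. The first has TATAAA at -147, the second has TGACTCA (in reverse) at -200 and CCAAT (in reverse) at -35 and 19, and the third has none of the motifs. RefSeq's start of 4732465J04Rik lies within the longer row of the deposited table.
9030616G12Rik, chr10:128970947-128971246, plus strand: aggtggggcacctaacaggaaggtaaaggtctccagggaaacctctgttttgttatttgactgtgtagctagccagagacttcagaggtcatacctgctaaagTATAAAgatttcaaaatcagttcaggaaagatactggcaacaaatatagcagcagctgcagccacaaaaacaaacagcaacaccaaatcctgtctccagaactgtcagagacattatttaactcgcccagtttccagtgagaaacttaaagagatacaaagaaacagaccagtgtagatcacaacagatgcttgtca
4732465J04Rik, chr10:95772883-95773182, plus strand: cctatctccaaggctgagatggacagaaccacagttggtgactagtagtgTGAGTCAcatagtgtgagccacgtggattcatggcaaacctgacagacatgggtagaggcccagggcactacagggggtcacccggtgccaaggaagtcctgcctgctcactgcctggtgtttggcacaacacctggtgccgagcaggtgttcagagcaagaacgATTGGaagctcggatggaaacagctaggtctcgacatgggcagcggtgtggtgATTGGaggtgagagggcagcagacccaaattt
Gm31583, chr16:24090016-24090315, minus strand: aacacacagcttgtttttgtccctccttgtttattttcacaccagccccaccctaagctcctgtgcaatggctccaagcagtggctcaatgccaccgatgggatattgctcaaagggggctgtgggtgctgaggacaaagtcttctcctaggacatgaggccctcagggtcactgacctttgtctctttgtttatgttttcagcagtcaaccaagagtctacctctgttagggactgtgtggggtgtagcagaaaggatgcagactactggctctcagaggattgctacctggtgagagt

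Snhg15 and Gm15889 follow because they moved otherwise, the first highest in TAA livers and the second highest at week 4. The Snhg15 promoter holds TGACGTCA at -88 and GGGCGG at -52. That of Gm15889 holds none of the motifs. Over the 80 promoter entries of the members, TATAAA occurred in 27.5%, CCAAT in 28.7%, GGGCGG in 17.5% and TGACNNNGC in 27.5%. TGACTCA occurred in 3.75% of them, TTCNNNGAA in 5% and TGACGTCA in 3.75%. Entries of 1 gene overlap each other, and no test was made against the shares of all promoters given above.
Snhg15, chr11:6528711-6529010, minus strand: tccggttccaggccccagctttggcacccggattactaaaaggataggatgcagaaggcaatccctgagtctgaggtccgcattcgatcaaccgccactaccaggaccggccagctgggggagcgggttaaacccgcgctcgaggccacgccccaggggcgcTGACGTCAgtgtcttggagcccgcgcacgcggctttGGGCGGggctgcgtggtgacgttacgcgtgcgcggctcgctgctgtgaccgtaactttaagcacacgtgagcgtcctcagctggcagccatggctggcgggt
Gm15889, chr8:94377625-94377924, plus strand: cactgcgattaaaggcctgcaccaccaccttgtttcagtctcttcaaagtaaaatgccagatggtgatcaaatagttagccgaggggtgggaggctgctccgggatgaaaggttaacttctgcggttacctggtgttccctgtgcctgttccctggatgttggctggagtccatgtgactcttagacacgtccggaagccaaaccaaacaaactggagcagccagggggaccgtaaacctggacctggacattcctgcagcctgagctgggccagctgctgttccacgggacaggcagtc

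RNA levels of cell type markers differed between the same groups. In TAA against control livers all 4 cycling markers were higher, with a summed level of 73.7 to 96.0 CPM in TAA and 5.85 to 17.97 CPM in control livers. Of 8 cholangiocyte markers 5 were higher (120.7 to 452 CPM against 55.6 to 59.9 CPM), of 8 stellate cell and myofibroblast markers 3 (564 to 775 CPM against 268 to 363 CPM), and of 8 macrophage markers 3 (172 to 227 CPM against 163 to 246 CPM). Of 6 endothelial markers 3 were lower (151 to 173 CPM in TAA against 231 to 274 CPM in control livers), of 6 hepatocyte markers tested 1 was lower (64360 to 78150 CPM against 79730 to 91710 CPM), and of 5 lymphocyte markers none was called. At 4 weeks of recovery against TAA livers the 4 cycling, 4 of the stellate cell and 1 of the cholangiocyte markers were lower. In the same comparison 5 of 6 endothelial and 2 of the hepatocyte markers were higher. The cycling, stellate cell and endothelial medians there were -3.31, -0.515 and 0.61, and -3.09, -0.48 and 0.57 without both libraries low in Malat1. Among all genes 10% were called higher and 11% lower in TAA against control, and 6.47% and 8.39% at 4 weeks against TAA. Without both libraries low in Malat1, 2 of the 4 cycling, 1 of the 8 cholangiocyte, 4 of the stellate cell and 3 of the macrophage markers were higher in TAA against control livers, and 3 endothelial, 2 hepatocyte and 1 cholangiocyte markers were lower, with 1 endothelial marker higher. The part of these cell types in the lincRNA differences was not tested.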

How the data were processed

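Whole-liver RNA of 16 libraries was read from 2 deposited tables, 1 of expected counts, which the authors estimated per gene and did not normalize, and 1 of TPM, which the authors scaled to the same sum in every library. The submitters' processing notes name STAR 2.7.10b, RSEM 1.3.3, DESeq2 1.36.0 and GRCm38, without their roles; neither the annotation release nor the strand setting of the counting is stated there. 2 value columns that match no sample were not used.

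Expected counts were rounded, filtered with filterByExpr (17292 of 29554 genes with a count kept, all 75 lincRNAs among them), scaled by TMM and fitted with edgeR 4.0.16 (quasi-likelihood, robust) in R 4.3.3, with 1 mean for each of the 8 groups so that all libraries share 1 estimate of the spread. P-values were adjusted by the Benjamini-Hochberg method over all genes, and SE is the log2 fold change over the root of F. Levels are CPM except where TPM is named. The alternatives were DESeq2 1.42.0 as the test, its size factors in edgeR, no filter, a fit of only the groups compared, a block for the replicate number, and leaving out each library or both of those low in Malat1. Replicate numbers were not taken to pair the libraries, since only 8 of 28 group pairs had a correlation over 0.1.

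The text draws its names from up to 10 called members in each direction for each comparison by fold change, the 3 smallest p-values where fewer than 3 were called, the 5 highest by TPM, members on the gene lists, those at the threshold and the nearest coding genes of these, printed where a result turns on them. Members and lists were chosen with earlier results of these data known. Coordinates are those of the deposited table with 1 added to its starts; 45873 of the 55141 rows with an identifier in GENCODE M21 had the same start and end there.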

Additional observations from a re-analysis of the deposited data

How the results depend on the processing

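Without the filter on low counts 38 members were called in TAA against control, 30, 39 and 40 at recovery 1, 2 and 4 weeks against TAA, 44 at 4 weeks against control and 14 for week 4 against week 1, where 14.3%, 5.57%, 9.68%, 12.2%, 17.1% and 3.54% of the 29554 genes then tested were called. The choline tests then called 1 member at 1 week (Erdr1), 3 at 4 weeks (Gm47283, 1810008I18Rik, BC049987), 1 over the mean of weeks (1810008I18Rik) and 4 for a difference between weeks. In the fit of the compared groups alone the counts, in the same order, were 2, 0, 12, 11, 0 and 18 (0.231%, 0.0289%, 8.04%, 8.85%, 0% and 10.5% of all genes). DESeq2 called 18 members at recovery 1 week, 1 for choline at 4 weeks and 7 for week 4 against week 1 (10%, 0.671% and 6.42% of all genes). Its size factors in edgeR gave 3 for the last (3% of all genes). Without both libraries low in Malat1 the counts were 21 and 37 at recovery 1 and 4 weeks against TAA, 20 for week 4 against week 1 and 1 for choline at 4 weeks (AC160336.1, -0.84 ± 0.17, adjusted p = 0.0482). The cause of these shifts was not tested. Leaving out 1 library at a time gave between 18 and 42 members in TAA against control, 0 to 25, 11 to 35 and 7 to 41 at recovery 1, 2 and 4 weeks against TAA, 1 to 49 at 4 weeks against control, 0 for each choline test and 0 to 8 for week 4 against week 1. With the replicate number as a block the counts for the same comparisons were 21, 11, 21, 21, 25, 0 for each choline test and 1. Outside the choline tests 22.8%, 4.52%, 12.2%, 16.2%, 22.5% and 3.24% of all genes were then called, and within them at most 0.0752%. Each of the 98 log2 differences picked by the naming rule, not all of them printed, kept its side of the threshold with that block for replicate numbers. The numbers were not taken to pair the libraries, since the correlations of same-numbered libraries ran from -0.206 to 0.587, 8 of 28 over 0.1. With a mean count of 50 or 200 as the rule, 107 or 30 rows would be members.

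No called member changed sign in any alternative. Values that were not called changed sign in TAA against control as follows. Jpx was -0.022 with DESeq2 size factors, -0.015 with DESeq2, -0.50 without control replicate 1 and -1.05 without TAA replicate 2. Ftx was -0.047 without both libraries low in Malat1, -0.52 without control replicate 1 and -0.50 without TAA replicate 2. Without control replicate 2, Snhg6 was -0.081, Lncpint 1.88, Norad (2900097C17Rik) 0.31 and Oip5os1 0.13. Without TAA replicate 2, Snhg20 was -0.14 and Pvt1 -0.20, and without TAA replicate 1 Lncpint was 0.13. At recovery 4 weeks against TAA, Snhg20 was -0.18 without both libraries low in Malat1 and -0.18 without TAA replicate 1. Over all libraries left out in turn, the log2 differences of these in TAA against control ran from -1.05 to 0.80 for Jpx, from -0.52 to 1.56 for Ftx, from -0.081 to 0.86 for Snhg6, from -0.14 to 1.29 for Snhg20 and from -2.13 to 1.88 for Lncpint. They ran from -0.20 to 1.31 for Pvt1, from -0.35 to 0.31 for Norad and from -0.66 to 0.13 for Oip5os1, and for Snhg20 at recovery 4 weeks against TAA from -0.18 to 1.25. In fits that leave 1 library in a group, it is assumed to vary like the other groups.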
